A study of Neogale vison with 6 samples.

Results

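The HOPS tethering complex and the SNAREs of autophagosome fusion were followed in Mv1Lu cells, an established line from mink lung, after cholesterol depletion (CD). The members were 10 genes, taken by their symbol from the 24526 genes of the count table. Of these, 6 encode tethers (VPS11, VPS16, VPS18, VPS39 and VPS41 of HOPS, and EPG5) and 4 encode SNAREs (STX17, SNAP29, VAMP8 and YKT6). The RNA-seq data comprised 3 libraries of untreated cells (control) and 3 of CD cells. CD cells were kept for 16 h in medium with 10% lipoprotein-deficient serum (LPDS), 50 μM of lovastatin, a statin that blocks sterol synthesis, and 50 μM of mevalonate, an early precursor of sterols. The control cells are labelled untreated, so the parts of lovastatin, mevalonate and LPDS in a difference cannot be told apart. All libraries come from 1 cell line, and the labels do not say whether the replicates were separate cultures. The p-values therefore measure the spread between these libraries, which may be technical.

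An autophagosome delivers its content by fusing with a lysosome or late endosome. HOPS first holds the membranes together. Its core subunits VPS11, VPS16, VPS18 and VPS33A also belong to CORVET, the tether of early endosomes, whereas VPS39 and VPS41 belong to HOPS alone and contact small GTPases and their adaptors on the membranes. EPG5 is a further tether that binds RAB7 and promotes the assembly of the SNAREs. The SNAREs then pull the bilayers together. STX17 and YKT6 sit on the autophagosome, VAMP8 on the lysosome, and SNAP29 is a soluble protein that contributes to the bundles formed with either STX17 or YKT6. YKT6 is held on membranes by lipid anchors, one of them a product of the mevalonate pathway. VPS33A was not found by its symbol and was not analysed here.

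The libraries held 13473820 to 18633764 reads counted on genes, and a further 29.3% to 47.2% of all reads were in rows that name no gene. Expression is given as CPM, the share of a library's reads that fell on a gene, scaled by TMM so that libraries can be compared, and it does not correct for transcript length. Errors are the SD of 3 libraries. edgeR's quasi-likelihood test was run over 12148 genes, and a gene was called where its FDR, adjusted by Benjamini-Hochberg across all of them, was below 0.05. At this threshold 24.8% of the tested genes were higher and 22.9% were lower in CD, and in 58.0% the libraries of the groups did not overlap. CD replicate 3 stood apart from the other CD libraries in several members. Values without it are given for the members whose call or sign depended on it, and for some of the other genes. The sterol-responsive genes HMGCS1 and INSIG1 were higher in CD, by 3.43 and 1.67 on the log2 scale (FDR 4.17e-07 and 8.48e-06, edgeR).

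Mv1Lu is known as an epithelial line, and here its markers gave a mixed picture. Of 7 epithelial markers, 5 were found by symbol and 2 passed the filter on low counts. KRT19 was abundant, at 883 to 1011 CPM in control and 379 to 533 CPM in CD libraries, whereas EPCAM, CDH1 and CLDN7 stayed at or below 0.287, 0.432 and 0.145 CPM in every library. CLDN4 was low and rose, from at most 0.867 CPM in control to at least 5.84 CPM in CD. The summed level of 7 fibroblast markers was 309.9 to 387 CPM in control and 183 to 232 CPM in CD (4 of 5 tested were lower). The others, LUM and DCN, were too low to be tested and did not fall. LUM had 1, 2 and 4 reads in control and 9, 14 and 12 in CD replicates 1, 2 and 3, and DCN had 0, 1 and 2 against 1, 8 and 6. The summed level of 5 endothelial markers, nearly all of it TEK, was 206 to 221 CPM in control and 75.9 to 124 CPM in CD, while VWF rose from 0.103 ± 0.0898 to 1.196 ± 0.401 CPM (log2 fold change 3.38, FDR 8.82e-04, edgeR). PECAM1 had 0 reads in the control libraries and 4, 5 and 2 in CD replicates 1, 2 and 3, and CDH5 was at 0 in all control libraries. The summed level of the 4 leukocyte markers found of 5 was 5.57 to 6.67 and 21.1 to 26.0 CPM, most of it CD68, with PTPRC at 0 in all libraries but CD replicate 3. The 2 tested leukocyte markers were higher in CD. CD68 had a log2 fold change of 1.85 (FDR 2.49e-05, edgeR), and CSF1R rose from 0.780 ± 0.314 to 3.59 ± 0.577 CPM (2.16, FDR 3.12e-04, edgeR). The part of these changes in the results that follow was not tested. In RNA from whole cultures, fewer cells of a type and less RNA per cell cannot be told apart.

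SNAP29 was the SNARE that rose in CD, and VPS41 the tether. VPS16 and VPS18 of the HOPS core fell. The other 6 members were not called with all libraries. By group, 1 of 6 tethers was higher and 2 were lower, and 1 of 4 SNAREs was higher and 0 lower. No SNARE was lower at an unadjusted p under 0.05 in edgeR either (0 of 4), nor was one called lower by DESeq2 or limma-voom (0 each). Without CD replicate 3, however, 3 tethers were higher and 2 lower, and 1 SNARE was higher and 2 were lower (VAMP8 and YKT6), beside 29.3% of all tested genes higher and 29.2% lower in that setting. The members called, 4 of 10, compare with 47.7% of all tested genes called in either direction, so that the number called is close to the background. Medians of the log2 fold change lay near 0, at 0.086 in tethers, 0.089 in SNAREs and 0.057 over all tested genes. The plot of all members by library shows the single values.

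**Figure D1:**
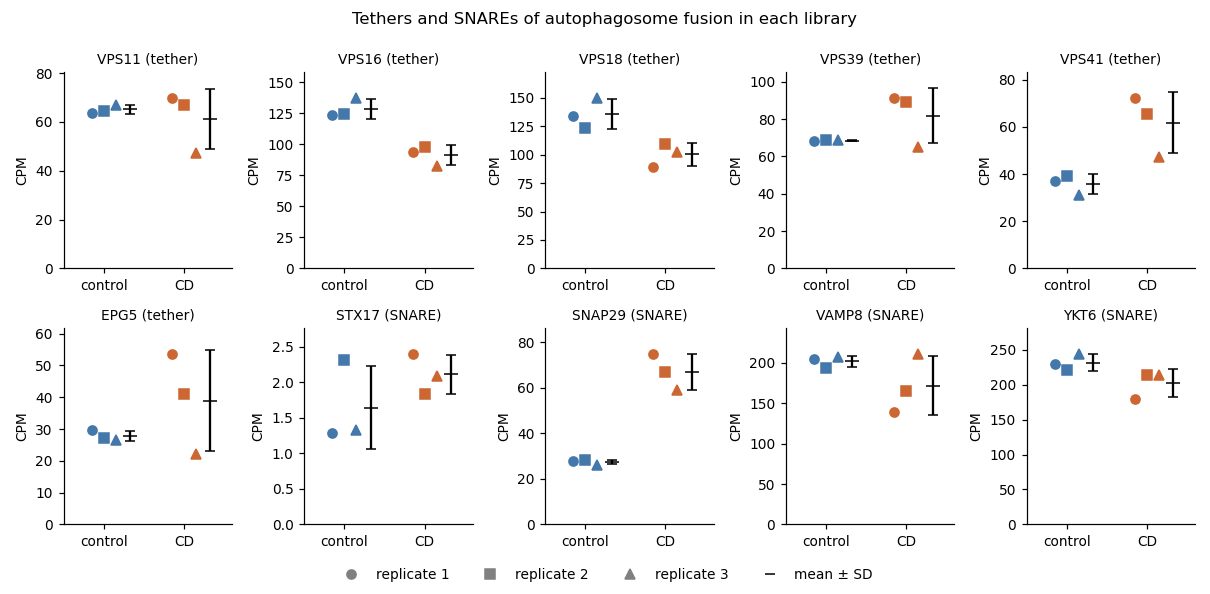
Expression of the 6 tethers and 4 SNAREs in each library, in CPM after TMM scaling (each vertical axis starts at 0). Symbols mark replicates 1, 2 and 3, and the bars beside them the mean ± SD of 3 libraries. The CD libraries of SNAP29 lie between 59.1 and 74.9 CPM, all above the control libraries, and CD replicate 3 is the lowest CD library of VPS11, VPS39, VPS41 and EPG5.

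VPS41 sits at one end of HOPS and helps to bring it to lysosomes. It was at 37.0, 39.3 and 31.2 CPM in control replicates 1, 2 and 3 and at 72.3, 65.6 and 47.4 CPM in CD replicates 1, 2 and 3. The groups did not overlap, and CD replicate 3 was the CD library nearest to the control. VPS41 was 1.73-fold higher in CD, a log2 fold change of 0.79 ± 0.17 (SE; FDR 0.00396, edgeR). An exact two-sided permutation test on its log2 CPM gave p = 0.1, which is the lower limit of a design with 3 libraries per group. VPS41 was called in all 14 alternative settings, with log2 fold changes between 0.67 and 0.91 when each library was left out in turn.

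VPS39, the other subunit particular to HOPS which binds the GTPase RAB2, gave a less clear result. Its control libraries were nearly identical, at 68.0, 68.5 and 68.8 CPM, while the CD libraries were at 91.3, 89.3 and 65.0 CPM. CD replicates 1 and 2 were above all control libraries and CD replicate 3 was below them, so the groups overlapped. With all libraries its log2 fold change of 0.26 had a 95% interval of -0.060 to 0.58, and VPS39 was not called (FDR 0.16, edgeR). Without CD replicate 3 it was 0.36 and was called (FDR 0.00379, edgeR). Leaving out CD replicate 2 instead gave 0.16 (FDR 0.46, edgeR).

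VPS16, the core subunit that holds VPS33A, fell. It was at 124, 124 and 137 CPM in the control and at 93.6, 97.9 and 82.1 CPM in the CD libraries, with no overlap between the groups. Its level was 1.41-fold lower in CD, a log2 fold change of -0.49 ± 0.12 (SE; FDR 0.00561, edgeR; exact permutation test, two-sided p = 0.1). All 14 alternative settings gave the same call, with log2 fold changes of -0.58 to -0.45 when a library was left out.

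VPS18, a core subunit with a RING finger that lies beside VPS11 at the center of the complex, fell to a similar extent. Its levels were 134, 123 and 150.0 CPM in control and 89.4, 109.8 and 102 CPM in CD libraries. The groups did not overlap, and here CD replicate 3 lay between the other CD libraries. CD libraries were on average 1.35-fold lower, a log2 fold change of -0.44 ± 0.13 (SE; FDR 0.0162, edgeR; exact permutation test, two-sided p = 0.1). VPS18 was called in 12 of 14 alternative settings. It was not called without control replicate 1 (log2 fold change -0.45, FDR 0.0559, edgeR) or without control replicate 3 (-0.36, FDR 0.0847, edgeR).

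VPS11, the third core subunit analysed here, was at 63.6, 64.7 and 67.1 CPM in control and at 69.9, 66.8 and 47.1 CPM in CD libraries. CD replicate 1 lay above and CD replicate 3 below all control libraries. The change of -0.088 on the log2 scale had a 95% interval of -0.43 to 0.26 (FDR 0.67, edgeR), and without CD replicate 3 its sign turned, to 0.033 (FDR 0.82, edgeR). A change of VPS11 was thus not detectable between these libraries.

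EPG5 varied more among the CD libraries than any HOPS subunit analysed here. It was at 29.7, 27.2 and 26.7 CPM in the control libraries and at 53.6, 40.9 and 22.1 CPM in CD replicates 1, 2 and 3. CD replicates 1 and 2 were above and CD replicate 3 was below all control libraries. With all libraries EPG5 had a log2 fold change of 0.48 and a 95% interval of -0.10 to 1.07 (FDR 0.16, edgeR). It was 0.72 without CD replicate 3, where EPG5 was called (FDR 3.31e-06, edgeR), and 0.19 without CD replicate 1 (FDR 0.51, edgeR).

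SNAP29 had the largest change of the 10 members. It was at 27.7, 28.2 and 26.3 CPM in control and at 74.9, 67.1 and 59.1 CPM in CD replicates 1, 2 and 3. All CD libraries lay far above all control libraries, with CD replicate 3 the lowest of them. SNAP29 was 2.45-fold higher in CD, a log2 fold change of 1.29 ± 0.13 (SE; FDR 3.52e-05, edgeR; exact permutation test, two-sided p = 0.1), and 93.3% of the tested genes had a lower value. SNAP29 was called in all 14 alternative settings, with log2 fold changes between 1.22 and 1.34 when each library was left out.

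STX17, which recruits SNAP29 to the completed autophagosome, had few reads, from 18 to 32 in the control and from 29 to 39 in the CD libraries. These correspond to 1.29, 2.31 and 1.32 CPM in control and 2.40, 1.84 and 2.09 CPM in CD replicates 1, 2 and 3. Control replicate 2 lay among the CD libraries, so the groups overlapped. The log2 fold change of 0.37 had a 95% interval of -0.27 to 1.02 (FDR 0.31, edgeR). It was 0.68 without control replicate 2, and 0.23 without control replicate 1 or 3. A difference was not detectable at this depth. STX17 was called in none of the 13 alternative settings in which it was tested, with FDR values from 0.0928 to 0.63 (edgeR, DESeq2 or limma-voom).

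VAMP8, the lysosomal SNARE that completes the bundle with STX17 and SNAP29, was at 205, 194 and 207 CPM in control libraries. In CD replicates 1, 2 and 3 it was at 139, 165 and 211 CPM. CD replicate 3 was the highest of all 6 libraries, in contrast to its place for EPG5 and VPS11. VAMP8 had a log2 fold change of -0.24 with a 95% interval of -0.57 to 0.10 (FDR 0.22, edgeR), and without CD replicate 3 it was -0.45 and called (FDR 5.39e-04, edgeR). Without CD replicate 1 it was -0.091 (FDR 0.57, edgeR).

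YKT6, which forms a second fusion bundle with SNAP29 and the lysosomal syntaxin STX7, was at 229.8, 221 and 244 CPM in control and at 179, 214 and 214 CPM in CD libraries. All CD libraries lay below all control libraries (exact permutation test, two-sided p = 0.1), as did those of 28.6% of the tested genes. With a log2 fold change of -0.20 and a 95% interval of -0.45 to 0.061, YKT6 was not called (FDR 0.19, edgeR). It was called without CD replicate 3, with a log2 fold change of -0.27 (FDR 0.0322, edgeR). Leaving out CD replicate 1 instead gave -0.10 (FDR 0.42, edgeR).

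**Figure D2:**
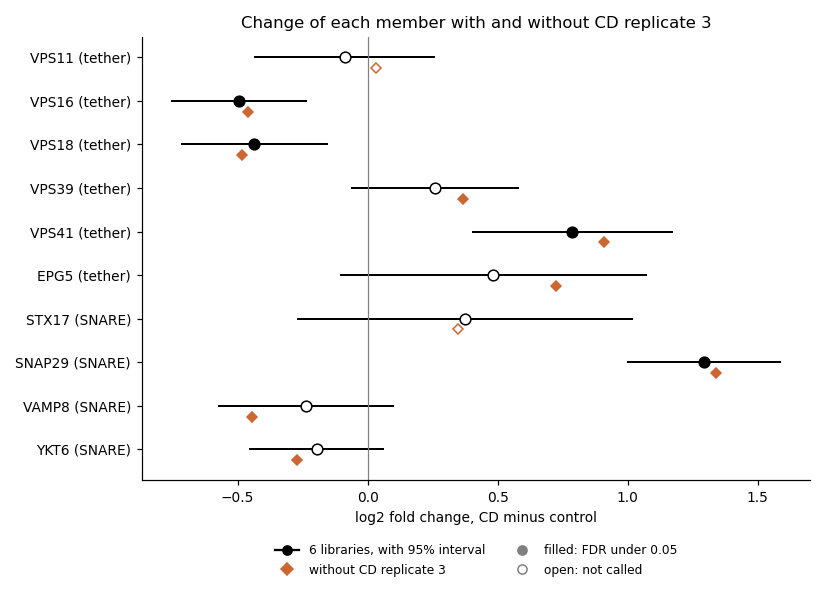
Log2 fold change of each member in edgeR (horizontal axis, CD minus control), with all 6 libraries (circles, with 95% intervals) and without CD replicate 3 (diamonds); filled symbols passed an FDR of 0.05. VPS41 and SNAP29 are higher and VPS16 and VPS18 lower in both analyses, and VPS39, EPG5, VAMP8 and YKT6 pass the threshold only in the analysis without CD replicate 3.

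The place of CD replicate 3 differed among the members. On the log2 scale it was below the mean of CD replicates 1 and 2 by 1.08 for EPG5, 0.54 for VPS41, 0.54 for VPS11, 0.47 for VPS39, 0.26 for SNAP29 and 0.22 for VPS16. It was above that mean by 0.48 for VAMP8, 0.13 for YKT6 and 0.045 for VPS18, and for STX17 it differed by -0.0080. Over all tested genes the quartiles of this difference were -0.37 and 0.29, and 4.03% of genes had a lower value than EPG5. Without this library 8 of the 10 members were called, against 58.6% of 12330 tested genes. The unmapped reads made up 9.37% of CD replicate 3, against 3.54% and 4.33% of the other CD libraries, but 18.4%, 13.6% and 4.25% of control replicates 1, 2 and 3. Reads without a feature made up 25.4% of it, against 19.5% to 23.4% of the other 5 libraries. The part of these differences in the values of the members was not tested.

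The ratio of the counts of 2 genes within a library does not depend on how the libraries are scaled, so ratios were used to compare the subunits of HOPS with each other. The ratios show how the balance changed and not the level of either gene, since longer transcripts give more reads. VPS41 had 0.58, 0.61 and 0.47 reads per read of VPS11 in the control libraries and 1.03, 0.98 and 1.01 in CD replicates 1, 2 and 3. This ratio was thus nearly the same in all CD libraries, CD replicate 3 included, at 1.83 times the mean of the control. Against VPS16, VPS41 rose from a ratio of 0.281 ± 0.0471 to 0.673 ± 0.0975 (SD, n = 3 each), and against VPS18 from 0.268 ± 0.0560 to 0.624 ± 0.174. VPS39 showed the same order with smaller changes. It had 1.07, 1.06 and 1.02 reads per read of VPS11 in control and 1.31, 1.34 and 1.38 in CD libraries, and its ratio to VPS16 was 0.534 ± 0.0288 in control and 0.893 ± 0.0932 in CD. For all 6 ratios of a HOPS-specific subunit to a core subunit, the CD and control libraries did not overlap, with CD the higher. Of all 73235253 pairs of tested genes with counts in every library, 59.3% had ratios that did not overlap in one direction or the other, and the 6 ratios share 5 genes. The ratios were chosen after the values had been seen, and no test was made on them.

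Within the core, the ratio of VPS16 to VPS18 overlapped between the groups, at 0.949 ± 0.0532 in control and 0.914 ± 0.123 in CD (SD, n = 3 each). VPS41 also gained against VPS39, with ratios of 0.54, 0.57 and 0.45 in control and 0.79, 0.74 and 0.73 in CD libraries. Among the SNAREs the balance moved toward SNAP29. It had 0.14, 0.15 and 0.13 reads per read of VAMP8 in the control and 0.54, 0.41 and 0.28 in CD replicates 1, 2 and 3, and its ratio to YKT6 went from 0.119 ± 0.010 to 0.336 ± 0.0739. The ratio of VAMP8 to YKT6 overlapped, at 0.873 ± 0.0209 and 0.844 ± 0.122, with CD replicate 3 the highest at 0.985.

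**Figure D3:**
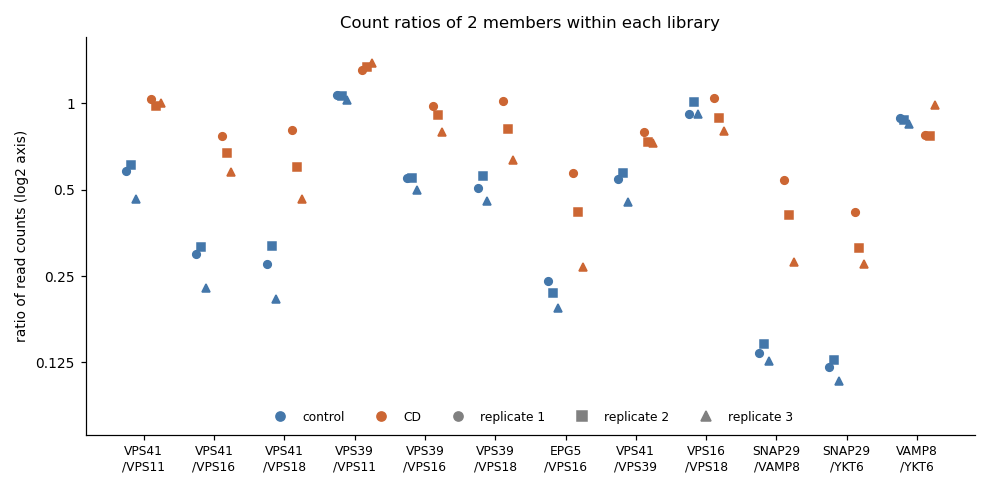
Ratio of the read counts of 2 members within each library (log2 vertical axis), for 12 pairs of tethers or SNAREs; blue symbols are control and orange symbols CD libraries, and shapes mark the replicate. The CD ratios of VPS41 to VPS11 lie between 0.98 and 1.03, and those of VPS16 to VPS18 and of VAMP8 to YKT6 overlap with the control.

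The proteins that bring the tethers and SNAREs to the membrane were examined as a list of 28 fusion partners. The table has 25 of them by symbol, and 24 passed the filter on low counts. CD raised 10 of these (41.7%, beside 24.8% of all tested genes) and lowered 1, and 13 were not called. Their median log2 fold change was 0.33. ATG14, a subunit of the class III PI3-kinase complex that also tethers STX17-bearing membranes, rose from 3.88 ± 0.501 CPM to 15.4 ± 1.98 CPM in 3 libraries each (1.99 on the log2 scale, FDR 2.82e-05, edgeR). UVRAG, which binds the HOPS core, rose from 13.8 ± 1.31 to 30.0 ± 4.04 CPM (log2 fold change 1.12, FDR 3.02e-04, edgeR). TECPR1, a tether that binds the ATG12-ATG5 conjugate, rose from 18.1 ± 1.7 to 24.8 ± 3.17 CPM (log2 fold change 0.45, FDR 0.0375, edgeR) and was called in 7 of 14 alternative settings. The study displayed ATG14, UVRAG and TECPR1 among autophagy genes that it picked for their change in these same libraries, so their direction is not independent evidence.

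RAB7A, the GTPase of late endosomes, was at 141 ± 1.57 and 179 ± 31.1 CPM, with a log2 fold change of 0.35, and was not called (FDR 0.0591, edgeR), but passed without CD replicate 3 (0.45, FDR 2.63e-04, edgeR). RILP, an effector of RAB7 that recruits HOPS, rose by a log2 fold change of 0.69 (FDR 0.0137, edgeR). It was not called without control replicate 2 (0.59, FDR 0.0691, edgeR) or without CD replicate 2 (0.63, FDR 0.0541, edgeR), with changes of similar size. The gene that fell was TBC1D2, which inactivates RAB7, from 192 ± 17.8 to 110.5 ± 7.35 CPM (log2 fold change -0.80, FDR 3.48e-04, edgeR). Other TBC proteins of the list that act on RAB7, named here after their values were seen, had log2 fold changes of 0.55 for TBC1D15 (FDR 0.0478, called higher) and 0.40 for TBC1D5 (FDR 0.0844, edgeR, not called). TBC1D5 was at 70.3 and 62.9 CPM in CD replicates 1 and 2, but at 42.4 CPM in CD replicate 3, below all control libraries.

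Other partners did not pass the test or passed it narrowly. PLEKHM1, an adaptor that joins HOPS to RAB7 and ATG8 proteins, had a log2 fold change of 0.085 with a 95% interval of -0.23 to 0.40 (FDR 0.65, edgeR). RUBCN, a brake on fusion, had one of -0.028 with an interval of -0.78 to 0.73 (FDR 0.95, edgeR). LAMP2, a lysosomal membrane protein needed for fusion, rose from 205 ± 4.71 to 250.4 ± 10.5 CPM (log2 fold change 0.29, FDR 0.0382, edgeR), and was called in 5 of 14 alternative settings. It was not called without CD replicate 3 (0.22, FDR 0.0762, edgeR). The share of higher partners depended on the libraries. Without control replicate 1 it was 20.8% (5 of 24), beside 18.4% of all genes tested in that setting, and without control replicate 2 it was 16.7% (4 of 24), beside 19.4%, so that the list was then near the background. It was 25% (6 of 24) without control replicate 3, beside 18.0% of all genes, and the same without CD replicate 2, beside 20.3%. Without CD replicate 3 it was 54.2% (13 of 24), beside 29.3%. With the replicate number as a block it was again 25%, beside 22.8% of all genes, and at an FDR threshold of 0.01 it was 16.7% (4 of 24), beside 16.5%.

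A second list held 30 further SNAREs and proteins that act on them. The table has 24 by symbol, and the test covered 23. Of these, 11 rose in CD (47.8%, beside 24.8% of all tested genes), 1 fell and 11 were not called, with a median log2 fold change of 0.54. The share higher was 65.2% (15 of 23) without CD replicate 3, beside 29.3% of all genes tested in that setting. It was 34.8% (8 of 23) without control replicate 1, beside 18.4%. STX7, the partner of YKT6 and SNAP29, rose from 5.24 ± 1.18 CPM to 12.9 ± 4.50 CPM in 3 libraries each (1.31 on the log2 scale, FDR 0.00296, edgeR). VAMP7, another R-SNARE of lysosomes, rose from 6.38 ± 0.889 to 12.1 ± 3.34 CPM (0.93, FDR 0.00779, edgeR), and STX8 from 35.3 ± 1.84 to 61.0 ± 14.9 CPM (0.79, FDR 0.00372, edgeR). CD replicate 3 was the highest library of STX8, and without it the log2 fold change of STX8 was 0.53 (FDR 1.49e-04, edgeR). STX12, an endosomal syntaxin, and VAMP4, of the trans-Golgi network, rose by 1.09 each (FDR 7.62e-05 and 0.00139, edgeR).

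The largest increase of this list belonged to STX3, a syntaxin of the apical plasma membrane, from 4.01 ± 0.323 to 17.3 ± 4.52 CPM (log2 fold change 2.11, FDR 5.74e-05, edgeR). VAMP5, known from muscle, fell from 73.8 ± 5.29 to 26.4 ± 5.18 CPM (-1.48, FDR 5.20e-05, edgeR). SNAP23, the relative of SNAP29 at the plasma membrane, was at 11.3 ± 0.501 and 16.5 ± 5.44 CPM and was not called with all libraries (0.55, FDR 0.0708, edgeR), but passed without CD replicate 3 (0.70, FDR 4.39e-04, edgeR) and was at 0.27 without CD replicate 1 (FDR 0.22, edgeR). Of the factors that take used SNARE bundles apart, the ATPase NSF had a log2 fold change of 0.59 (FDR 0.0421, edgeR) with overlapping groups and was called in 7 of 14 alternative settings. NSF was at 0.77 without CD replicate 3 (FDR 2.17e-06, edgeR) and at 0.40 without CD replicate 1 (FDR 0.12, edgeR). Its adaptor NAPA had a log2 fold change of -0.048 with an interval of -0.33 to 0.24 (FDR 0.78, edgeR).

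**Figure D4:**
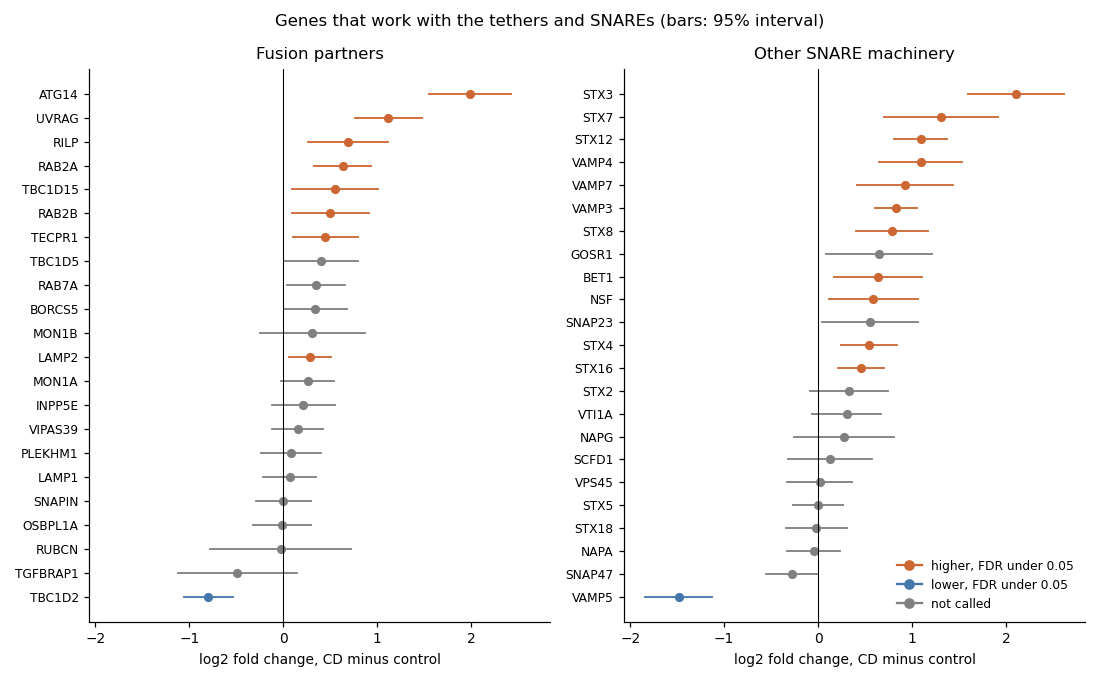
Log2 fold change (CD minus control, horizontal axis) with 95% interval of most of the 24 tested fusion partners (left) and of the 23 tested other SNARE genes (right), in the order of their change. Orange genes were higher and blue genes lower at an FDR under 0.05 in edgeR; TBC1D2 and VAMP5 are the lower ones, and ATG14 and STX3 have the highest values.

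Many genes outside these lists followed the pattern of VPS41 or SNAP29 over the 6 libraries. By Pearson's r of log2 CPM, given as a description since all genes share the same libraries and groups, SNAP29 was most like CCD69 (0.9996), SMAD2 (0.999) and CCNG2 (0.999), and 1017 of 10088 tested genes with a symbol had an r over 0.95. VPS41 was most like PLS3, DOCK1 and JAK1, each at 0.99, with 260 genes over 0.95.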

How the data were processed

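RNA of 3 control and 3 CD samples of Mv1Lu cells was enriched for poly(A) RNA and sequenced on a NextSeq500. The authors deposited whole-number counts per gene, made from reads filtered with fastp 0.20.1 and aligned with STAR 2.7.2a to the mink assembly NNQGG.v01. The counting program and its use of strand are not given in the sources used here, so reads of overlapping or antisense genes cannot be told apart. The authors' normalised values per library (DESeq2 1.30.1 in R 4.0.3) were not used, because their gene identifiers did not follow the count table.

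Rows that name no gene were left out. Counts were filtered with filterByExpr (minimum count 10), scaled by TMM and tested with edgeR 4.0.16 (quasi-likelihood, robust, R 4.3.3), with condition as the only term and 95% intervals from its standard errors. The code was tested on simulated data. Alternatives were DESeq2 1.42.0, limma-voom (limma 3.58.1), other scalings and filters, a replicate block, each library left out and an FDR threshold of 0.01. Equal replicate numbers showed no sign of pairing the libraries, though correlations of deviations from the group means could not exclude it.

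The members and lists were chosen with earlier results of these data known. Named are all members, genes of the sterol response, the called genes of each partner list (up to 5 highest and 5 lowest) with the fixed additions RAB7A, PLEKHM1, UVRAG, RUBCN, ATG14, LAMP2, TECPR1, VAMP7, STX7, STX8, SNAP23, NSF and NAPA, and the 3 genes most like the most changed tether and SNARE. Exact permutation tests were two-sided. Some genes that this rule names are not reported here.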

Additional observations from a re-analysis of the deposited data

How the results depend on the processing

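SNAP29, VPS41 and VPS16 passed in all 14 alternatives and VPS18 in 12, and VPS11 and STX17 passed in none. VPS39, EPG5, VAMP8 and YKT6 passed in 1, that without CD replicate 3. Leaving out each library gave 1 to 3 tethers higher and 1 to 2 lower, 0 to 2 SNAREs lower and 4 to 13 fusion partners higher. Of the other SNARE genes 8 to 15 were then higher and 1 to 2 lower. Median log2 fold changes were -0.014 to 0.20 for the tethers and 0.014 to 0.23 for the SNAREs. An FDR threshold of 0.01 left 2006 genes higher, 1 tether lower and 4 fusion partners higher (16.7%, beside 16.5% of all genes). With at least 50 counts in 3 libraries STX17 was not tested, and the median of the 3 other SNAREs was -0.19. Signs changed for VPS11 (-0.19 to 0.033 when each library was left out), PLEKHM1 (-0.041 to 0.16), RUBCN (-0.30 to 0.27, and 0.0062 with upper quartile or 0.0027 with total count scaling, which moved the median of all genes from 0.057 to 0.090 and 0.072) and NAPA (-0.20 to 0.065), none of them called. With the replicate block 6 fusion partners (25%, beside 22.8% of all genes) were higher, and no call of a member changed. The replicate numbers did not pair the libraries: deviations of same-numbered libraries correlated at -0.024, -0.33 and -0.18. The cause of the changes between settings was not tested.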
